A study of Mus musculus with 15 samples.

Results

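Trefoil factors, mucins and the proteins that fold, carry and accompany them were described across mouse prostate epithelial organoids of 6 genotypes. The group has 10 genes, chosen by gene name as a functional group with results of both tables known. They are Tff1, Tff2, Tff3, Muc1, Muc4, Muc20, Agr2, Spdef, Pigr and Sftpd. All 10 are among the 21886 genes of the first expression table, and 8 are among the 14301 genes of the second, which does not list Tff2 or Tff3. The choice names no contrast or threshold, but RPKM, CPM and fitted changes of these genes were in view when it was made. The adjusted p-values below therefore place each gene within a fit of the whole table and are a description, not independent support.

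Prostate epithelial cells of C57BL/6 mice were grown as organoids, and their RNA was sequenced as paired reads of 150 nucleotides. The first table holds 4 groups from 3-month-old mice: Setd2PC-/-;Ezh2PC-/- (double null), Ezh2PC-/- (Ezh2 null), Setd2PC-/- (Setd2 null) and a control with neither deletion. All 4, control included, share a further alteration, so the control is not wild type. The second table holds organoids from 2-month-old mice, with Ezh2 K735R or with wild-type Ezh2, on a shared background that differs from that of the first table. The 6 groups have 2 libraries each. Each first-table library pooled the RNA of 3 biological replicates, and its p-values therefore measure the spread between pools and not between mice. For the second table the labels give no pool size. The 3 chromatin samples of the series were not analysed here.

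Trefoil factors are small, disulfide-rich peptides that mucous epithelia secrete together with mucins, and they are known for protecting and repairing mucosal surfaces. Mucins are heavily O-glycosylated proteins, and Muc1, Muc4 and Muc20 belong to those anchored in the apical membrane. Agr2 is a protein disulfide isomerase of the endoplasmic reticulum that mucin-producing cells need, Spdef is an ETS transcription factor of goblet cells and prostate epithelium, Pigr carries polymeric IgA across epithelia, and Sftpd is a secreted collectin of innate defence.

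Reads recovered from the RPKM values numbered 29687539 to 54350590 per library, and the count totals were 28831228 to 37482322. RPKM divides reads by the length of the gene and the size of the library. The RPKM of Setd2 averaged 8.26 in double null, 13.1 in Ezh2 null, 9.51 in Setd2 null and 16.5 in control, and that of Ezh2 averaged 15.4 in double null, 12.7 in Ezh2 null, 22.5 in Setd2 null and 20.1 in control. A table with 1 value per gene still counts transcripts that lack deleted exons. Luminal prostate markers (12 of 12 listed) summed to 3972 to 5263 RPKM in all 8 libraries, a sum set by keratin genes, but 7 of the 11 tested were higher and 1 lower in Ezh2 null against control. Hoxb13, a homeobox factor of the prostate, had 95.1 and 112 RPKM in double null, 68.7 and 88.4 in Ezh2 null, 12.3 and 15.2 in Setd2 null and 19.3 and 20.3 in control. Tmprss2, an androgen-responsive protease gene, had 111 and 114 RPKM in double null, 96.6 and 103 in Ezh2 null, 30.9 and 22 in Setd2 null and 25.8 and 29.1 in control. Both of these luminal markers thus moved with Ezh2 genotype alongside the members, and their part in the members' levels was not tested. Basal markers (8 of 8) summed to 2754 to 6255 RPKM, with the highest basal sums in double null, but they did not move together. Of the 8 tested, 3 were higher and 3 lower in Ezh2 null against control, where 36.1% of all genes were higher. Krt5 had 1107 and 1358 RPKM in Ezh2 null and 543 and 551 in control. Lamb3 had 39.8 and 44.2 RPKM in Ezh2 null and 353 and 351 in control. In bulk RNA a smaller share of cells and less RNA per cell cannot be told apart.

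The 250 bases before the annotated start are shown for the members whose levels differed most between genotypes and for which RefSeq promoter sequence (GRCm38.p6) was at hand, as context for the shared rise described next. They are given 5' to 3' on the gene's own strand, with each CG pair in capitals. Agr2 is at chr12:35992675-35992924 on the plus strand, Spdef at chr17:27728952-27729201 on the minus strand, Pigr at chr1:130826434-130826683 on the plus strand and Muc20 at chr16:32797436-32797685 on the minus strand. The Spdef window lies inside the gene as placed with its RPKM, 27714446 to 27731003. It precedes another annotated start and not the outer end of that interval, and its letter counts below hold for this window only.
Agr2: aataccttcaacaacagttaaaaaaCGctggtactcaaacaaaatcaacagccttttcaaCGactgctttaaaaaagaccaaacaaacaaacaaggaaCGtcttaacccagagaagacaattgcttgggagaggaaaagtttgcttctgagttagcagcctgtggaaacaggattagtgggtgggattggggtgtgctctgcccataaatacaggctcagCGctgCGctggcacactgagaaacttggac
Spdef: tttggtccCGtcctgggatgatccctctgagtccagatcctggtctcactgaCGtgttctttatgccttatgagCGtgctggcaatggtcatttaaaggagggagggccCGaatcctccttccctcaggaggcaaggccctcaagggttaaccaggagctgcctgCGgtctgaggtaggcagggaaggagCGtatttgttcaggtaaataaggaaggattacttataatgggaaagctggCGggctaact
Pigr: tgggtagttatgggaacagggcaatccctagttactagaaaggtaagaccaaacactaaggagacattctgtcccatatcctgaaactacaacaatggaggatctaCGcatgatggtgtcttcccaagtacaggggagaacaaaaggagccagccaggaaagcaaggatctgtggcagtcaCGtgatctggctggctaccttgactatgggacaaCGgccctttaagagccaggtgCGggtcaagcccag
Muc20: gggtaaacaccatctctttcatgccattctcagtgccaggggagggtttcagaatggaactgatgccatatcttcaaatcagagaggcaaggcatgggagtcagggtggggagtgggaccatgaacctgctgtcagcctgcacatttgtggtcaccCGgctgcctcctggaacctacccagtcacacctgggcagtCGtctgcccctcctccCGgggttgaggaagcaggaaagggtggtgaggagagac

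These windows hold few to average numbers of CG pairs. Spdef has 7, Agr2 5, Pigr 4 and Muc20 3, against a median of 6 over 27025 promoter windows of the same length. Muc1 has 3 and Muc4 has 1, and 8.26% of the windows have fewer than Muc4. On either strand, the ETS core AGGAAG occurs once in the Spdef window and once in the Muc20 window, and in 29.2% of all windows. The forkhead core TGTTTA occurs once in the Muc20 window and in 12% of all windows, and TATAAA occurs once each in those of Muc1 and Muc4 and in 13% of all windows. A match is a run of letters and not a site, and no match says only that these letters are not in that window.

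**Figure D1:**
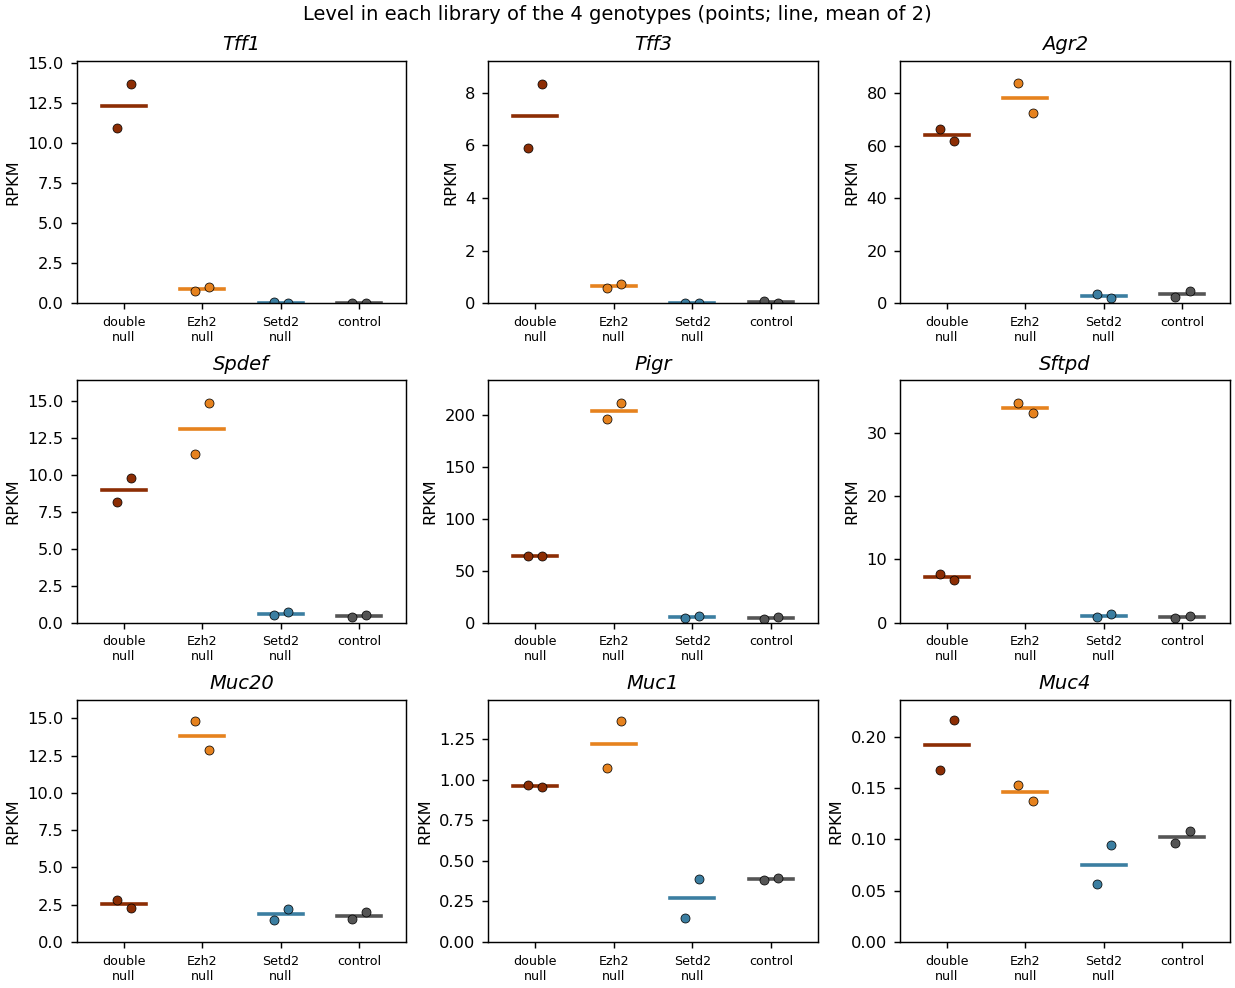
RPKM of 9 members in each of the 8 libraries of the first table. Points are libraries and lines are means of 2; each panel has its own axis from 0. Tff1 and Tff3 are highest in double null, while Pigr, Sftpd and Muc20 are highest in Ezh2 null and Agr2 and Spdef are high in both Ezh2-deleted groups. Tff2, listed at 0 in every library, is not drawn.

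The summed level of the members was low with Ezh2 intact and higher after its deletion, and Pigr and Agr2 carried most of it. RPKM summed over the 10 genes was 167 and 168 in the double null libraries, 343 and 349 in Ezh2 null, 10.6 and 13.4 in Setd2 null and 8.49 and 14.2 in control. In Ezh2 null, Pigr made up 57.1% and 60.8% and Agr2 24.4% and 20.8% of the sum, while Tff1, Tff3, Muc1 and Muc4 averaged 0.886, 0.662, 1.22 and 0.146 RPKM. Pigr was the highest member in 7 of the 8 libraries. The exception was double null replicate 1, where Agr2 made up 39.7% of the sum and Pigr 38.5%. Of the 10 members, 7 averaged 1 RPKM or more across the 8 libraries and were tested (Tff1, Tff3, Muc20, Agr2, Spdef, Pigr and Sftpd). Muc1 and Muc4 were below that level, and Tff2 was listed at 0 in every library. Tff1, Tff3 and Spdef were below 1 RPKM in every library with Ezh2 intact and were tested only through Ezh2-deleted groups. Sftpd, with means of 1.07 RPKM in Setd2 null and 0.869 in control, also reached the level tested only with those groups. Counts and medians over the tested members are therefore descriptions and support nothing.

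With Setd2 intact, deletion of Ezh2 was accompanied by higher levels of all 7 tested members (Ezh2 null against control, 7 of 7 at an adjusted p under 0.05 by limma). Across all 11338 genes tested, 36.1% were higher in this comparison. The median log2 fold change was 3.30 over the 7 members and 0.18 over all genes tested. With Setd2 already deleted, 6 of the 7 were higher (double null against Setd2 null), against 35.6% of all genes. Double null against control also gave 6 of 7, against 34.2% of all genes. The share of all genes depends on the scaling. In Ezh2 null against control 4096 genes were higher and 2320 lower, but 3098 and 3093 with median-ratio scaling and 3177 and 3158 with quantile normalization, which called 7 and 6 members higher. In double null against Setd2 null the split was 4036 higher and 2205 lower, against 2940 and 2981 with median-ratio scaling, and in double null against control 3874 and 2273, against 2948 and 2948. In both, 6 members were higher under each scaling. Deletion of Setd2 alone gave 0 of 7 (Setd2 null against control), with 1.07% of all genes changed in either direction. At an unadjusted p under 0.05 by limma there were 0 members and 1313 of the 11338 genes. The 4 groups share libraries across these comparisons, so their values for a gene are not separate evidence.

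The trefoil factors stood out by genotype: Tff1 and Tff3 were near 0 with Ezh2 intact, low after Ezh2 deletion and higher again when Setd2 was deleted too. Tff1 (Entrez 21784, chromosome 17, 31161395 to 31165062, minus strand, mm10) had 10.9 and 13.7 RPKM in double null, 0.737 and 1.03 in Ezh2 null, 0.0621 and 0 in Setd2 null and 0 and 0 in control. Behind these values were 264 and 339 reads in double null, 20 and 24 in Ezh2 null, 1 and 0 in Setd2 null and 0 and 0 in control. Both double null libraries were above both Ezh2 null libraries, and both of these were above every library with Ezh2 intact. Between the Ezh2-deleted groups the ratio of means was 13.9 (double null against Ezh2 null, log2 difference 2.81 ± 0.142 SE, adjusted p = 7.56e-06 by limma). Fitted changes are differences of log2(RPKM + 1), which come out too small for low genes. With control at 0 reads, Tff1 was at least 60.7-fold higher in double null and at least 4.38-fold higher in Ezh2 null, taking 3 reads per library as the floor for a count of 0, which covers counting error only. RefSeq places the noncoding gene Gm15318 across part of Tff1, and strandedness is not given in the sources used here, so reads of both cannot be told apart.

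Tff3 (Entrez 21786, chromosome 17, 31125306 to 31129611, minus strand) had 5.89 and 8.34 RPKM in double null, 0.589 and 0.735 in Ezh2 null, 0 and 0 in Setd2 null and 0.072 and 0 in control. As for Tff1, double null was above Ezh2 null, and both were above the groups with Ezh2 intact. Setd2 null and control did not differ beyond their spread. Tff3 was 10.8-fold higher in double null than in Ezh2 null (log2 difference 2.27 ± 0.154 SE, adjusted p = 4.17e-05 by limma). In Ezh2 null it rested on 15 and 16 reads, against 1 and 0 in control. That rise (log2 difference 0.68, adjusted p = 0.0042 by limma) was lost with quantile normalization (log2 fold change 0.34, adjusted p = 0.165, within 0.000295 to 0.165 over the alternatives). Against Setd2 null, at 0 reads, Tff3 in double null was at least 37.3-fold higher. Tff2, the trefoil factor best known from gastric mucus, lies between the other two and was listed at 0 in all 8 libraries.

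**Figure D2:**
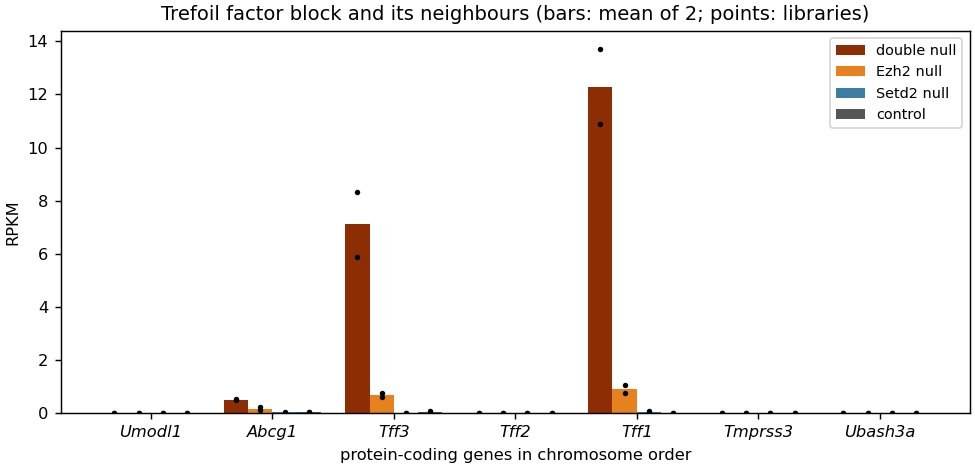
RPKM of the 3 trefoil factor genes and of the 2 protein-coding genes on each side, in chromosome order. Bars are means of 2 libraries, points are the libraries, and groups run double null, Ezh2 null, Setd2 null, control. Tff3 and Tff1 carry nearly all signal of the block, and Abcg1 reaches at most 0.507 RPKM.

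The 3 trefoil genes lie within 39757 bases on chromosome 17, and the genes beside them had little expression. Abcg1, a cholesterol exporter next to Tff3, averaged 0.496 RPKM in double null, 0.154 in Ezh2 null, 0.0208 in Setd2 null and 0.0226 in control, below the level tested. Umodl1 and Tmprss3 were listed at 0 in all 8 libraries, and Ubash3a reached at most 0.00483 RPKM. The order of groups in Abcg1 was thus high in double null as in Tff1 and Tff3, at a far lower level.

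The mucins differed among themselves. Muc20 (Entrez 224116, chromosome 16, 32777419 to 32797435, minus strand) had 2.81 and 2.27 RPKM in double null, 14.8 and 12.9 in Ezh2 null, 1.5 and 2.19 in Setd2 null and 1.55 and 1.99 in control. Its high level was in Ezh2 null, and the remaining groups lay within 1.5 to 2.81 RPKM. It was 7.81-fold higher in Ezh2 null than in control (log2 difference 2.42 ± 0.163 SE, adjusted p = 2.03e-06 by limma). In double null it was lower than in Ezh2 null (log2 difference -2.07, adjusted p = 8.02e-05 by limma). Double null did not pass the test against Setd2 null (log2 fold change 0.32, 95% interval -0.04 to 0.69, limma adjusted p = 0.121). Without Setd2 null replicate 2 that difference passed (log2 difference 0.50, adjusted p = 0.0498 by limma, within 0.0498 to 0.873 over the alternatives). Against control, double null had a log2 fold change of 0.36 (95% interval -0.01 to 0.72, limma adjusted p = 0.0912).

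Muc1 (Entrez 17829, chromosome 3, 89229056 to 89233381, plus strand), the widely expressed membrane mucin, was a low gene here. It had 0.969 and 0.957 RPKM in double null, 1.07 and 1.36 in Ezh2 null, 0.149 and 0.387 in Setd2 null and 0.382 and 0.395 in control. Both Ezh2-deleted groups were above both groups with Ezh2 intact, without overlap. Muc1 was below the level tested, and in a fit with no filter on low values it was 3.13-fold higher in Ezh2 null than in control (log2 difference 0.67, adjusted p = 0.00419 by limma). Double null against Ezh2 null gave -0.17 (95% interval -0.44 to 0.10).

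Muc4 (Entrez 140474, chromosome 16, 32735886 to 32782391, plus strand), a large membrane mucin that binds the receptor ErbB2, was lower still. Its RPKM was 0.168 and 0.217 in double null, 0.153 and 0.138 in Ezh2 null, 0.0564 and 0.0944 in Setd2 null and 0.0965 and 0.108 in control, from 21 to 124 reads per library. In the fit with no filter, Muc4 was 2.55-fold higher in double null than in Setd2 null (adjusted p = 0.0108 by limma) and 1.88-fold higher in double null than in control (adjusted p = 0.0297 by limma). With edgeR on recovered reads the call against Setd2 null held, but in double null against control neither Muc4 nor Muc1 was called. Ezh2 null against control did not pass (1.42-fold, adjusted p = 0.211 by limma). Muc4 and Muc20 are on opposite strands and overlap over 4973 bases, from 32777419 to 32782391, so without stated strandedness reads in the overlap could count for either gene. Between double null and Ezh2 null, Muc4 had a log2 difference of 0.06 (95% interval -0.02 to 0.13, adjusted p = 0.484 by limma), while Muc20 fell.

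Around this mucin pair, the neighbours behaved in other ways. Tnk2, a tyrosine kinase gene beside Muc4, averaged 23.9 RPKM in Ezh2 null and 44.9 in control and fell (log2 difference -0.89, adjusted p = 0.00295 by limma). Rubcn, an autophagy regulator gene beyond Muc20, averaged 11.1 RPKM in Ezh2 null and 11.1 in control (log2 fold change -0.00, adjusted p = 0.984). Tfrc, the transferrin receptor gene, had a log2 fold change of 0.11 in that comparison (limma adjusted p = 0.656). Gm933, adjoining Muc20, was below the level tested with 0.553 and 0.202 RPKM in Ezh2 null and 0 and 0 in control.

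Agr2 and Spdef, the folding enzyme and the transcription factor of mucus-producing cells, were high in both Ezh2-deleted groups. Agr2 (Entrez 23795, chromosome 12, 35992925 to 36004081, plus strand) had 66.5 and 61.8 RPKM in double null, 83.8 and 72.6 in Ezh2 null, 3.47 and 2.06 in Setd2 null and 2.3 and 4.45 in control. Every Ezh2-deleted library was above every library with Ezh2 intact, and Setd2 null and control overlapped. It rose 23.2-fold in Ezh2 null against control (log2 difference 4.22 ± 0.24 SE, adjusted p = 7.23e-07 by limma) and 23.2-fold in double null against Setd2 null (fitted log2 change 4.14, adjusted p = 8.85e-07). Between double null and Ezh2 null the log2 fold change was -0.28, with a 95% interval of -0.82 to 0.26 (limma adjusted p = 0.748).

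Spdef (Entrez 30051, chromosome 17, 27714446 to 27731003, minus strand) had 8.17 and 9.82 RPKM in double null, 11.4 and 14.9 in Ezh2 null, 0.485 and 0.709 in Setd2 null and 0.355 and 0.497 in control. As for Agr2, the groups split by Ezh2 genotype without overlap. It rose 30.9-fold in Ezh2 null against control (log2 difference 3.30 ± 0.161 SE, adjusted p = 2.68e-07 by limma) and 15.1-fold in double null against Setd2 null (2.64, adjusted p = 1.21e-06). Both double null libraries were below both Ezh2 null libraries, but the difference did not pass (log2 fold change -0.50, 95% interval -0.86 to -0.13, limma adjusted p = 0.133). It passed with the replicate number fitted as a block (adjusted p = 0.0244, within 0.0244 to 0.551 over the alternatives).

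Pigr and Sftpd, the 2 mucosal defence genes, were high in Ezh2 null and intermediate in double null. Pigr (Entrez 18703, chromosome 1, 130826684 to 130852249, plus strand) had 64.4 and 64.3 RPKM in double null, 196 and 212 in Ezh2 null, 4.02 and 6.71 in Setd2 null and 3.02 and 5.76 in control. Its rise in Ezh2 null against control was 46.5-fold (log2 difference 5.30 ± 0.25 SE, adjusted p = 2.19e-07 by limma). In double null it was 12-fold above Setd2 null (log2 difference 3.39, adjusted p = 4.4e-06 by limma). Double null was nonetheless below Ezh2 null (log2 difference -1.65, adjusted p = 0.00388 by limma), a call lost without Ezh2 null replicate 2 (log2 fold change -1.59, adjusted p = 0.0561, within 0.00213 to 0.0561 over the alternatives).

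Sftpd (Entrez 20390, chromosome 14, 41172212 to 41185198, minus strand), best known from lung surfactant, had 7.65 and 6.76 RPKM in double null, 34.8 and 33.1 in Ezh2 null, 0.845 and 1.29 in Setd2 null and 0.722 and 1.02 in control. The 2 Ezh2-deleted groups did not overlap each other or the groups with Ezh2 intact. Sftpd rose 39.1-fold in Ezh2 null against control (log2 difference 4.23 ± 0.149 SE, adjusted p = 4.03e-08 by limma). It rose 6.75-fold in double null against Setd2 null (1.99, adjusted p = 4.67e-06) and was lower in double null than in Ezh2 null (-2.09, limma adjusted p = 5.25e-05). In Ezh2 null the tested members thus ran Pigr, Agr2, Sftpd, Muc20, Spdef, Tff1 and Tff3 from high to low RPKM, and Muc20 (13.8 ± 1.35) and Spdef (13.1 ± 2.53, SD, n = 2 each) did not differ beyond their spread.

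**Figure D3:**
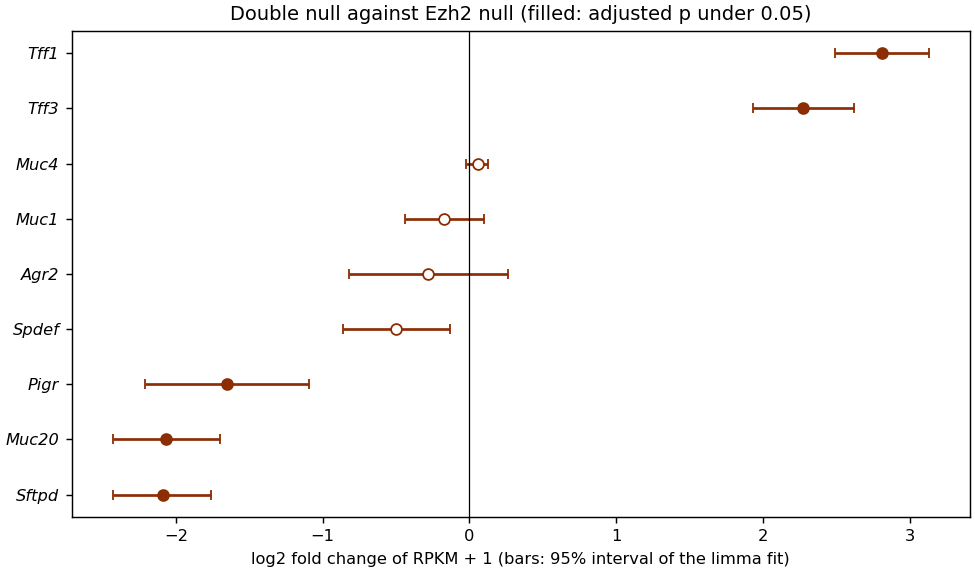
Log2 fold change of RPKM + 1 in double null against Ezh2 null for 9 members, with 95% intervals of the limma fit; filled points had an adjusted p under 0.05. Muc1 and Muc4 come from the fit with no filter. Tff1 and Tff3 lie right of 0, Pigr, Muc20 and Sftpd left of it, and the intervals of Agr2, Muc1 and Muc4 cross 0.

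In Ezh2-deleted organoids the members differed in direction when Setd2 was deleted as well (double null against Ezh2 null). Of the 7 tested members, 2 rose (Tff1 and Tff3) and 3 fell (Muc20, Sftpd and Pigr), while over all genes 3.79% rose and 2.70% fell. Tff1 and Tff3 reached a mean of 1 RPKM only through double null, so nothing is read from their count beside that share. Agr2 and Spdef did not pass, although Spdef also fell, with the replicate block (adjusted p = 0.0244 by limma). Same-numbered libraries of these 2 groups deviated from their group means together (r 0.933). The main fit took no account of that, so its intervals here are those of unpaired groups. The median log2 fold change of the 7 members was -0.50 and that of all genes tested -0.02. By edgeR's quasi-likelihood test on recovered reads the same 5 were called, with log2 fold changes of 3.80 for Tff1, 3.43 for Tff3, -2.43 for Muc20, -2.23 for Sftpd and -1.66 for Pigr.

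**Figure D4:**
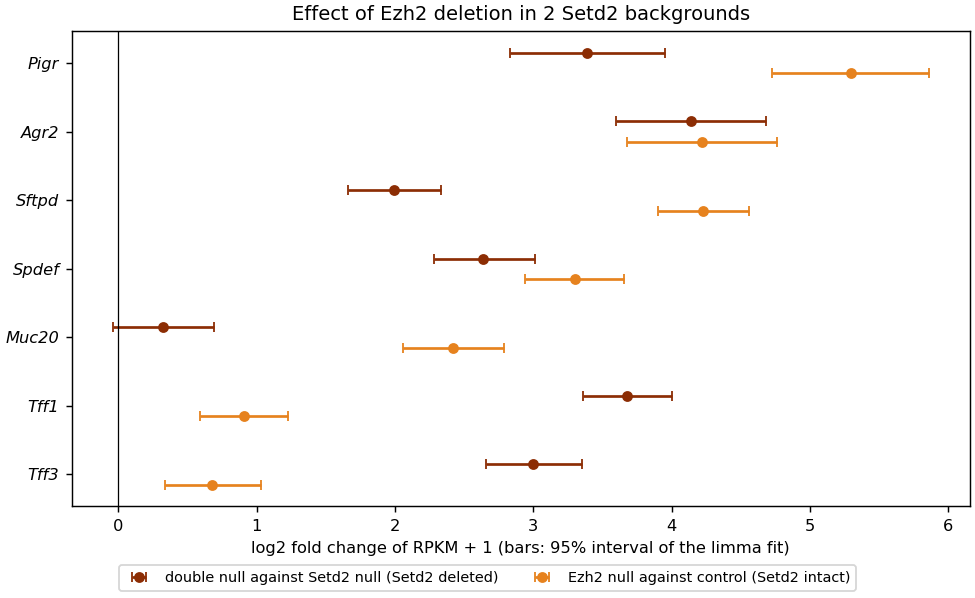
Log2 fold change of RPKM + 1 on Ezh2 deletion with Setd2 deleted (double null against Setd2 null, upper point) and intact (Ezh2 null against control, lower point) for the 7 tested members, with 95% intervals of the limma fit. The paired intervals overlap for Agr2 and narrowly for Spdef, and lie apart for the other 5.

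The interaction of both deletions asks whether the effect of Ezh2 deletion differed by Setd2 genotype. On the log2(RPKM + 1) scale the effect was larger with Setd2 deleted for 2 members (Tff1 and Tff3) and smaller for 3, while over all genes it was larger for 1.69% and smaller for 0.900%. Since the trefoil factors were tested only through their double null levels, nothing is read from the first count beside its share. The differences were 2.77 ± 0.201 SE for Tff1 (limma adjusted p = 0.000184), 2.32 ± 0.217 for Tff3 (0.000896), -2.10 ± 0.23 for Muc20 (0.00168), -2.23 ± 0.21 for Sftpd (0.000896) and -1.91 ± 0.354 for Pigr (0.0217). Agr2 had -0.08 (95% interval -0.85 to 0.68, adjusted p = 1) and Spdef -0.66 (95% interval -1.17 to -0.14, adjusted p = 0.263). For the trefoil factors this depends on the scale, because Setd2 null and control had 0 or 1 read per library. With edgeR on recovered reads the interaction did not pass for Tff1 (log2 1.14, adjusted p = 1, within 0.000102 to 1 over the alternatives) or Tff3 (log2 6.21, adjusted p = 0.353, within 0.000186 to 0.353). The Pigr interaction was lost under 9 of 15 alternatives, with adjusted p from 0.0127 to 0.125, among them edgeR on recovered reads (log2 -1.98, adjusted p = 0.095) and leaving out Setd2 null replicate 2 (-1.60, 0.0813), either Ezh2 null library (0.117 and 0.125), either double null library (0.0988 and 0.114) or control replicate 1 (-1.53, 0.0664).

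Genes most like each member were taken as the 3 with the smallest root mean square difference of centred log2(RPKM + 1) over the 8 libraries, as a description. Tff3 was closest to Spink1, a trypsin inhibitor gene (difference 0.0672), which averaged 6.85 RPKM in double null, 0.612 in Ezh2 null, 0 in Setd2 null and 0 in control. Tff1 was closest to Mt4, a metallothionein gene of squamous epithelium (0.243), and next to the keratin genes Krt16 (0.247) and Krt6b (0.275). The trefoil factors were each other's nearest member (0.303) among those that averaged 1 RPKM or more. Muc20 was the only mucin among these, since Muc1 and Muc4 were below that level. Both trefoil factors reached it only through double null, so their likeness supports nothing.

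Muc20 was closest to the casein gene Csn3 (0.172), followed by the gasdermin genes Gsdmc4 (0.182) and Gsdmc3 (0.183), all 3 higher in Ezh2 null than in the other groups. Spdef was closest to Nrgn (0.143) and Tspan15 (0.159), and Agr2 to Wfdc10 (0.268) and Saa3 (0.275). Pigr was closest to Cldn2, a claudin gene (0.372), and Sftpd to the transporter gene Slc41a2 (0.296). Among the members, Pigr was nearest to Agr2 (0.599) and Sftpd to Spdef (0.589), while Muc20 was 0.872 from its nearest member, Sftpd.

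Other genes of mucus and mucosal secretion were counted from lists. Of 32 other mucosal secretion genes, 27 were listed, 8 of these at 0, and 11 were tested. In Ezh2 null against control 8 of the 11 rose and 2 fell (median log2 fold change 1.46, against 0.18 over all genes). Over all genes 36.1% were higher and 2320 of 11338 lower. In double null against Ezh2 null 0 rose and 4 fell, while 3.79% of all genes rose and 2.70% fell. Ltf, the iron-binding lactotransferrin, had 255 and 251 RPKM in double null, 1053 and 1042 in Ezh2 null, 5.58 and 3.73 in Setd2 null and 7.64 and 7.08 in control, and fell in double null against Ezh2 null (log2 difference -2.04, adjusted p = 7.85e-05 by limma). Ltf thus exceeded every member in Ezh2 null. Lyz2, a lysozyme, averaged 2.84 RPKM in double null and 7.94 in Ezh2 null and was listed at 0 in Setd2 null and control. Clca1, a secreted protein of goblet cells, averaged 91.1 RPKM in double null, 155 in Ezh2 null, 22.1 in Setd2 null and 22.3 in control. Reg3g, a secreted C-type lectin, averaged 4.85 RPKM in double null, 3.68 in Ezh2 null, 0.136 in Setd2 null and 0.0851 in control.

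Lyz2 and Clca1 also fell in double null against Ezh2 null by limma (log2 fold changes -1.22 and -0.76, adjusted p = 0.000253 and 0.0353). The call of Lyz2 was lost with edgeR on recovered reads (adjusted p = 0.0848, within 0.000426 to 0.0848), and that of Clca1 under 7 of 16 alternatives (adjusted p 0.00711 to 0.167). Reg3g did not pass in that comparison (log2 fold change 0.36, adjusted p = 0.468). Ltf, Lyz2 and Clca1 therefore stood with Pigr, Sftpd and Muc20 in direction, and Reg3g did not.

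Of 17 other secretory cell factors, 10 were tested, and 8 rose and 0 fell in Ezh2 null against control (median log2 fold change 0.74, and 0.18 over all genes, of which 36.1% were higher). Elf5, an ETS factor like Spdef, averaged 3.57 RPKM in double null, 6.96 in Ezh2 null, 0.308 in Setd2 null and 0.793 in control. Klf4, a zinc finger factor that goblet cells need, averaged 59.5 RPKM in double null, 26.7 in Ezh2 null, 8.65 in Setd2 null and 8.38 in control. Both factors were higher in the Ezh2-deleted groups than with Ezh2 intact, and double null exceeded Ezh2 null for Klf4 (log2 difference 1.13, adjusted p = 0.00621 by limma). Creb3l4, a factor of the secretory pathway, averaged 5.81 RPKM in double null, 7.52 in Ezh2 null, 2.91 in Setd2 null and 3.14 in control.

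Of 20 secretory pathway helpers 17 were tested, and 9 rose and 0 fell in Ezh2 null against control, beside 36.1% of all genes higher, or 27.3% with median-ratio scaling. Their median log2 fold change was 0.47, and 0.18 over all genes. Ern2, an endoplasmic reticulum stress sensor of mucous epithelia, averaged 1.77 RPKM in double null, 3.14 in Ezh2 null, 0.0045 in Setd2 null and 0.00527 in control. Sdf2l1, a chaperone partner, rose in Ezh2 null against control (log2 difference 2.65, adjusted p = 2.1e-06 by limma), as did Creld2 (1.31, 7.49e-05) and the disulfide isomerase Pdia5 (0.88, 0.000334). In double null against Ezh2 null 1 helper rose and 1 fell of the 17, while 3.79% of all genes rose and 2.70% fell.

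Of 25 mucin-type O-glycosylation genes 18 were tested, and 8 rose and 7 fell in Ezh2 null against control, where 36.1% of all genes were higher and 2320 of 11338 lower. Nothing is read from that count about the list. St6galnac2, a sialyltransferase, averaged 29.6 RPKM in double null, 53.8 in Ezh2 null, 9.78 in Setd2 null and 13.7 in control. Fut2, the secretor fucosyltransferase, averaged 6.14 RPKM in double null, 11.9 in Ezh2 null, 1.67 in Setd2 null and 1.66 in control. Galnt4, which starts O-glycan chains, averaged 12.2 RPKM in double null, 12.2 in Ezh2 null, 3.75 in Setd2 null and 3.48 in control. Gcnt4, a branching enzyme, was the one of these 4 that fell in Ezh2 null against control (log2 difference -1.93, adjusted p = 1.02e-05 by limma). Of 17 other mucin and mucin-like genes only 3 were tested. Mcam and Podxl rose in Ezh2 null against control (1.85 and 0.94), beside 36.1% of all genes higher. Cd164 had -0.41 (limma adjusted p = 0.068, passing under 5 alternatives). Nothing is read from so few genes. Muc2, below the level tested, went the other way, with 0.0757 and 0.0702 RPKM in Ezh2 null and 0.871 and 0.958 in control.

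Markers of intestine, stomach and airway were at low levels. Intestinal markers (7 of 7 listed, Cdx1 at 0) summed to 4.08 and 4.72 RPKM in double null, 2.55 and 2.19 in Ezh2 null, 1.31 and 1.27 in Setd2 null and 1.73 and 1.6 in control. Within that list Muc2 ran against the sum. It had 0.228 and 0.203 RPKM in double null, 0.0757 and 0.0702 in Ezh2 null, 0.497 and 0.72 in Setd2 null and 0.871 and 0.958 in control. Stomach markers (6 of 6 listed, with Gkn1, Gkn2 and Tff2 at 0) reached at most 0.942 RPKM in double null and at most 0.595 in Ezh2 null. Lung and airway markers summed to 2.02 to 3.33 RPKM in all 8 libraries. Urothelial markers (6 of 6 listed) were not low, and their sum moved with Ezh2 genotype. They summed to 47.5 and 53.2 RPKM in double null, 60.8 and 69 in Ezh2 null, 37.2 and 31 in Setd2 null and 30.3 and 29.1 in control. Of the 5 tested, 4 were higher and 1 lower in Ezh2 null against control, where 36.1% of all genes were higher and 2320 of 11338 lower. The lower one was Upk3a. It had 1.4 and 1.09 RPKM in double null, 1.2 and 1.5 in Ezh2 null, 14.8 and 8.01 in Setd2 null and 5.4 and 6.27 in control. The seminal vesicle list also moved with Ezh2 genotype. It summed to 52.1 and 36.1 RPKM in double null, 51.5 and 38.5 in Ezh2 null, 0 and 0 in Setd2 null and 0 and 0.0323 in control, with Svs1, Svs3a and Svs6 at 0. Pate4 carried most of that sum, with 49.3 and 33.4 RPKM in double null and 39.3 and 29.5 in Ezh2 null, whereas Svs4 had 2.03 and 1.75 RPKM in double null and 8.54 and 6 in Ezh2 null. The part of either list in the members' levels was not tested.

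The second table asks what a single amino acid change of Ezh2, K735R, does in the organoids of the younger mice. Of the 8 listed members, 0 were called by edgeR's quasi-likelihood test in Ezh2 K735R against Ezh2 wild type, against 0.00757% of the 13203 genes tested. At an unadjusted p under 0.05 by edgeR there was 1 member, beside 1220 of the 13203 genes. DESeq2 called 1 member, beside 285 of the 14301 genes. In both cases it was Sftpd, and nothing is read from these counts. The median log2 fold change was -1.35 over the 8 members and -0.01 over all genes tested. The levels are CPM (counts relative to library size after TMM scaling), which are not scaled by gene length and cannot be set beside RPKM.

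**Figure D5:**
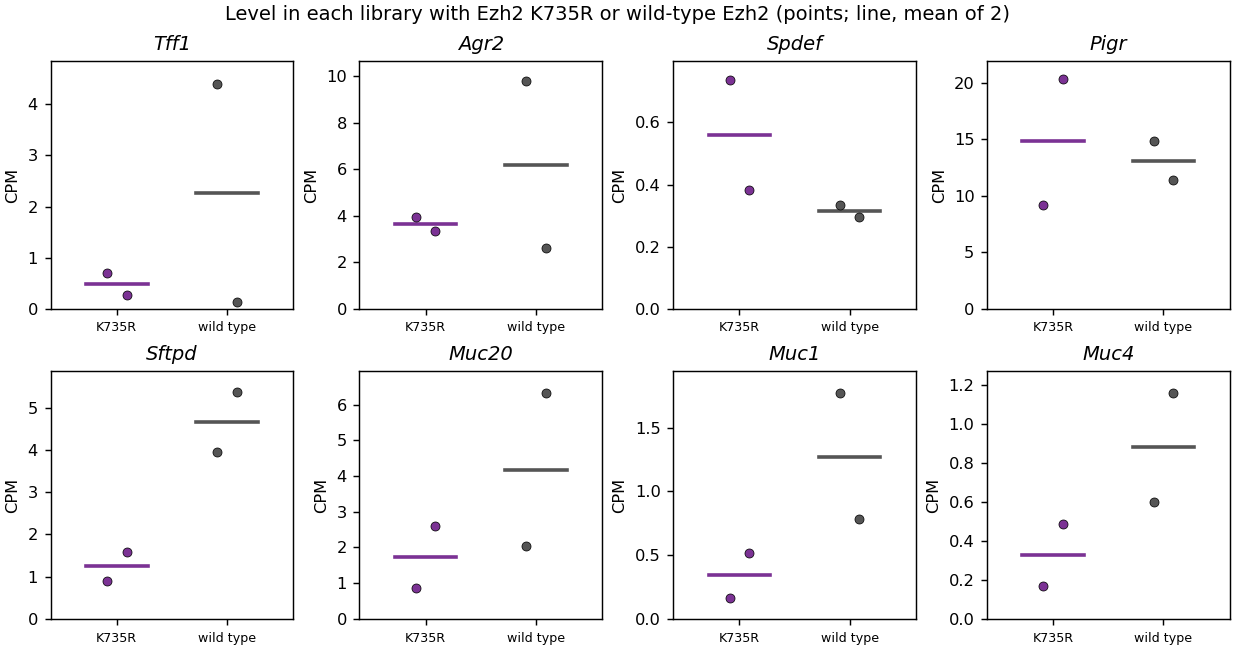
CPM of the 8 listed members in each library with Ezh2 K735R (left) or wild-type Ezh2 (right). Points are libraries and lines are means of 2; each panel has its own axis from 0. The 2 wild-type libraries lie far apart for Tff1, Agr2 and Muc20. Without overlap, Sftpd, Muc1 and Muc4 are lower with K735R and Spdef is higher. How many of all genes lack overlap was not counted, so nothing is read from this.

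Sftpd had 0.904 and 1.59 CPM with K735R and 3.94 and 5.36 CPM with wild-type Ezh2, so that the groups did not overlap. Its log2 fold change was -1.90 (edgeR adjusted p = 0.361), and with DESeq2 -1.89 (adjusted p = 0.0174). It also passed edgeR's test without wild-type replicate 1 (-2.10, adjusted p = 0.0339), with adjusted p from 0.0174 to 1 over the alternatives. Tff1 had 0.703 and 0.277 CPM with K735R and 4.4 and 0.135 with wild-type Ezh2. Wild-type replicate 1 set the wild-type mean, and the log2 fold change of -2.19 (edgeR adjusted p = 0.715) was -3.14 without wild-type replicate 2 (adjusted p = 0.0101) and 1.84 without wild-type replicate 1 (adjusted p = 0.476), with 0.0101 to 1 over the alternatives.

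Agr2 showed the same gap between the wild-type libraries, with 3.95 and 3.33 CPM with K735R and 9.78 and 2.61 with wild-type Ezh2. Its log2 fold change was -0.76 (edgeR adjusted p = 0.774), -1.41 without wild-type replicate 2 (adjusted p = 0.0158) and 0.48 without wild-type replicate 1 (adjusted p = 0.596), with 0.0158 to 1 over the alternatives. Pigr had 9.18 and 20.3 CPM with K735R and 14.8 and 11.4 with wild-type Ezh2, and Spdef 0.737 and 0.381 CPM with K735R and 0.334 and 0.296 with wild-type Ezh2. Neither passed (edgeR adjusted p = 0.932 and 0.756), and the libraries overlapped for Pigr. Spdef rested on 22 and 11 counts with K735R and 10 and 11 with wild-type Ezh2.

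The 3 mucins were lower on average with K735R, without a call. Muc1 had 0.167 and 0.52 CPM with K735R and 1.77 and 0.781 with wild-type Ezh2 (log2 fold change -1.88, edgeR adjusted p = 0.575). Muc4 had 0.167 and 0.485 CPM with K735R and 0.601 and 1.16 with wild-type Ezh2 (-1.43, adjusted p = 0.634). Muc20 had 0.871 and 2.6 CPM with K735R and 2.04 and 6.33 with wild-type Ezh2 (-1.27, adjusted p = 0.67), and its libraries overlapped. Muc1 and Muc4 rested on 5 to 53 counts per library.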

How the data were processed

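The members, lists and tests were chosen with earlier results of these data known. The build was mm10 and the tools included Bowtie and RSEM, per the submitters' processing notes, with versions and strandedness not given in the sources used here. Deposited by the authors were RPKM for 8 libraries and whole-number counts for 4, a unit taken from the values. RPKM steps gave whole reads within 0.01 reads for 13745 of 13748 genes above 0 in all 8 libraries (99.978%).

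Log2(RPKM + 1) of the deposited values was fitted in limma 3.58.1 (R 4.3.3) with trended, robust moderation over the 11338 genes that averaged 1 RPKM or more, all 4 groups together. Counts were tested in edgeR 4.0.16 (TMM, filterByExpr, robust quasi-likelihood; 13203 genes). P-values were Benjamini-Hochberg adjusted per contrast and called at 0.05, two-sided. Symbols that a spreadsheet had turned into dates (27 and 19) were renamed from Entrez identifiers.

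All members are named. Other genes are up to 4 per list by smallest p, 2 neighbours on each side and 3 like genes per member. A gene the list rule names and a shared part of the genotypes are not reported here. Alternatives were other scalings, filters, a pseudocount of 0.1, only the groups compared, DESeq2 1.42.0, edgeR on recovered reads, a replicate block and leaving out each library. Deviations of same-numbered libraries from their group means were compared over the 6 group pairs of the first table. They went together for Ezh2 null with double null (r 0.933) and weakly for the remaining pairs (r 0.105 to 0.358). In the second, with 1 pair, r was 0.16. The main fits had no replicate block, which was fitted only as an alternative. For the 4 genotypes that block was a single shift shared by all groups. It does not model a pairing of Ezh2 null with double null alone.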

Additional observations from a re-analysis of the deposited data

Results flagged for a closer look

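The effect of Ezh2 deletion differed with Setd2 genotype, by limma's interaction term on the log2(RPKM + 1) scale (Setd2 deleted minus Setd2 intact), for 5 members. The difference was 2.77 for Tff1 and 2.32 for Tff3, each higher in both double null libraries than in both Ezh2 null libraries. It was -2.10 for Muc20, -2.23 for Sftpd and -1.91 for Pigr, each lower in both double null libraries than in both Ezh2 null libraries. The differences for Muc20 and Sftpd also passed with edgeR on recovered reads (-2.53 and -2.56, adjusted p = 0.004 and 0.0064), and those for Tff1, Tff3 and Pigr did not.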

How the results depend on the processing

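With a mean of at least 5 RPKM, which leaves Tff1, Tff3 and Muc20 untested, 4 members were called in each of Ezh2 null against control, double null against Setd2 null and double null against control, 2 in double null against Ezh2 null and 2 in the interaction. With no filter, which adds Muc1 and Muc4, 8 were called in each of the first 3 of these and 4 in the interaction. With edgeR on recovered reads, which also adds both, 8 were called in Ezh2 null against control and 8 in double null against Setd2 null. Only 6 were called in double null against control, without Muc1 and Muc4, and 2 in the interaction. Quantile normalization gave 6 in Ezh2 null against control, and a pseudocount of 0.1 gave 4 in the interaction. DESeq2 called 1 member for K735R. Over all genes, Setd2 null against control gave 121 calls, and 56 with quantile normalization, 67 with no filter, 62 with a mean of at least 5 RPKM and 15 with only the groups compared. Double null against Ezh2 null gave 736, and 465 and 399 under the last 2 of these. The interaction gave 294, and 146 with a mean of at least 5 RPKM. K735R gave 1, and 285 with DESeq2. On recovered reads edgeR called 134 genes in Setd2 null against control, 7494 in Ezh2 null against control, 7236 in double null against Setd2 null, 741 in double null against Ezh2 null, 7164 in double null against control and 219 in the interaction.

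The replicate block gave 231 calls over all genes for Setd2 null against control, 469 for the interaction and 4 for K735R. It changed the call of 1 member, Spdef in double null against Ezh2 null, and no other member call.

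Leaving out 1 library at a time gave, over all genes, 24 to 132 calls in Setd2 null against control, 4776 to 6713 in Ezh2 null against control, 4707 to 6232 in double null against Setd2 null, 361 to 799 in double null against Ezh2 null, 4339 to 6408 in double null against control, 142 to 278 in the interaction and 0 to 1595 for K735R. Members called numbered 0 to 0, 7 to 7, 6 to 7, 4 to 5, 6 to 6, 4 to 5 and 0 to 2 in the same order. A group left with 1 library was taken to vary like the others. Without wild-type replicate 2, K735R gave 1595 calls, and without wild-type replicate 1, 644.

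Signs that turned when 1 library was left out belonged to values that were not called with all libraries. In Setd2 null against control the log2 fold change ran from -0.14 to 0.21 for Muc20, from -0.56 to 0.16 for Agr2, from -0.01 to 0.30 for Sftpd and from -0.12 to 0.63 for Pigr. The Agr2 interaction ran from -0.44 to 0.28. For K735R the range was -3.14 to 1.84 for Tff1, -1.41 to 0.48 for Agr2 and -0.51 to 0.63 for Pigr. In double null against Ezh2 null it was -0.14 to 0.27 for Cd164 and -0.06 to 0.05 for Galnt4, and Galnt4 was 0.01 with median-ratio scaling and 0.004 with edgeR on recovered reads. The cause was not tested. Quantile normalization moved the median log2 fold change of all genes in Ezh2 null against control to 0.01, against 0.18. Few reads limit Tff1 and Tff3 with Ezh2 intact, Spdef in the second table, and Muc1 and Muc4 throughout.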
